A study of Rattus norvegicus with 8 samples.

Results

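Livers of male Sprague-Dawley rats given dexamethasone and GW3965 together (Dex+GW3965) were compared with livers of rats given vehicle, on whole-liver mRNA. The comparison rests on 4 of the 8 arrays of the study, 2 of Dex+GW3965 and 2 of vehicle, and the arrays of Dex alone and of GW3965 alone entered the fit for the spread between arrays. Dex+GW3965 rats, of 180 to 200 g, received GW3965 at 50 mg/kg by gavage for 3 days and dexamethasone at 1.5 mg/kg by intramuscular injection on the last of these days. Dex rats received the gavage vehicle and the dexamethasone injection, GW3965 rats received GW3965 and a saline injection, and vehicle rats received the gavage vehicle and saline. All livers were taken 24 h after the injection. Both arrays of a group carry the same liver number in the labels and differ by a letter, a or b, although the methods state 2 animals per group, so adjusted p-values measure the spread between arrays, which may be technical.

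Dexamethasone is a synthetic glucocorticoid. It binds the glucocorticoid receptor (GR), a nuclear receptor that in liver raises genes of glucose output and amino acid breakdown and lowers many genes of inflammation. GW3965 is a synthetic agonist of the liver X receptors (LXRs), which sense oxysterols and act on genes of sterol export, bile acid synthesis and fatty acid synthesis. Interferon-stimulated genes, which lead the list of rises here, code for antiviral proteins and are normally driven through a promoter element called the interferon-stimulated response element (ISRE).

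The values are log2 signals, 1 per probe set, and 16253 of 31042 probe sets lay above the median of their array on at least 2 arrays and were tested. They include 9829 genes that could be named, each read on its brightest probe set. The medians of the 8 arrays lay between 5.48 and 5.52, and their mean of 5.49 served as the floor under which a group mean was taken as not above background. Arrays of 1 group differed by a median of 0.08 in Dex+GW3965 and 0.09 in vehicle on the log2 scale. Hepatocyte markers were bright in every array, with albumin (Alb), the main plasma protein made by hepatocytes, between 14.88 and 14.95.

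Of the 16253 probe sets, 5980 (36.8%) differed between Dex+GW3965 and vehicle at an adjusted p under 0.05, 2533 of them higher (15.6%) and 3447 lower (21.2%). Most of these differences were small. The median size among called probe sets was 0.37 on the log2 scale, and 4586 of them were under 1.5-fold. At least 2-fold differences numbered 270 higher (1.66%) and 229 lower (1.41%), and 19 rises and 7 falls reached 8-fold. The median change over all tested probe sets was -0.02. The arrays of the groups did not overlap in 5971 of the 5980 called probe sets, and with 2 arrays per group they did not overlap in 10628 of all 16253 tested (65.4%) either.

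**Figure D1:**
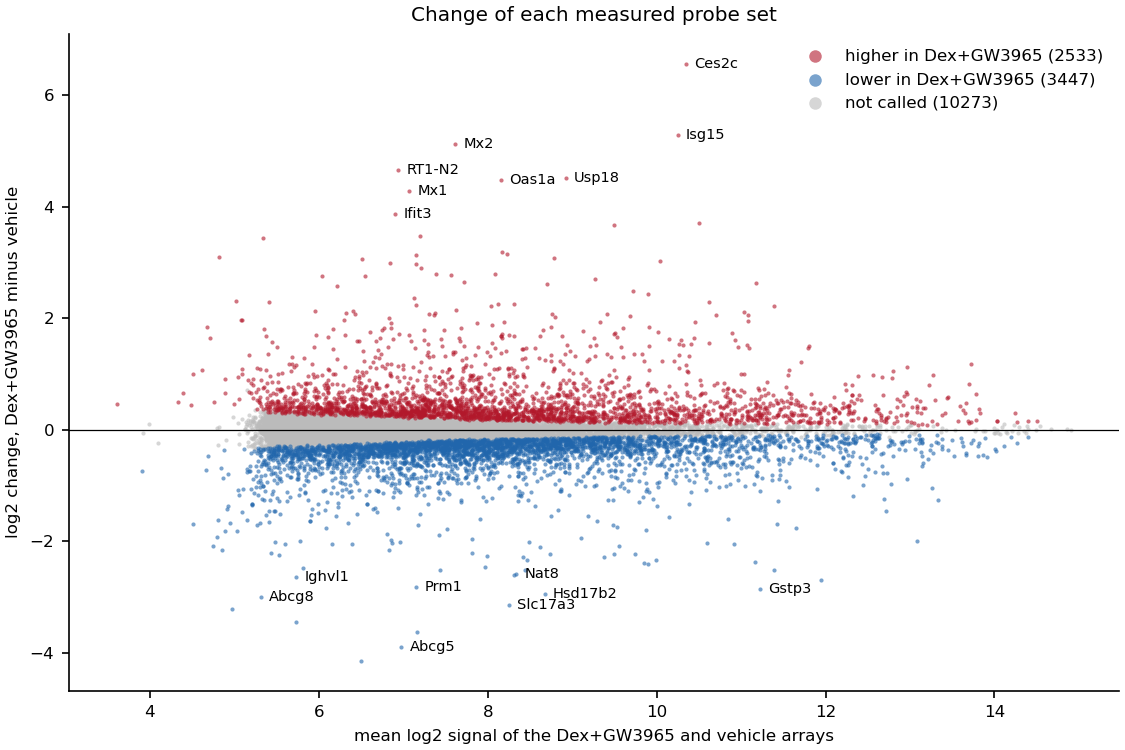
Each point is 1 of the 16253 tested probe sets, with the mean log2 signal of the Dex+GW3965 and vehicle arrays on the horizontal axis and the log2 change, Dex+GW3965 minus vehicle, on the vertical axis. Red points were called higher (2533), blue points lower (3447) and grey points were not called. Of the 8 rises named in it, Ces2c and RT1-N2 are no interferon effectors and the others are.

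Interferon effectors, the proteins that act against viruses, rose as a group. Of 58 listed genes 43 passed the filter on low values, 2 of them (Oas1b and Zbp1) only through the Dex+GW3965 arrays, which makes a rise of these 2 a matter of selection. Of the 43 measured members 40 were higher in Dex+GW3965 livers, 34 of them at least 2-fold, 1 was lower and 2 did not pass the test. Their median change was 1.68 (1.65 with dim members at their bounds), against -0.02 over all named genes, of which 1597 of 9829 (16.2%) were called higher and 2330 (23.7%) lower. These shares apply to the counts of every list below. Ifitm1, an antiviral membrane protein, was the member that fell, by 0.38 (adjusted p = 1.3e-06). Ifit1 (0.16, adjusted p = 0.29) and Ifitm2 (-0.03, adjusted p = 0.79) did not pass.

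Isg15, a ubiquitin-like protein that is attached to other proteins in infected cells, had log2 signals of 12.92 and 12.86 in Dex+GW3965 livers, against 7.43 and 7.79 in vehicle livers. The difference of 5.28 (SE 0.08, adjusted p = 2.1e-18) corresponds to 38.8-fold. Usp18, the protease that removes Isg15 from its targets, had 11.17 and 11.20 in Dex+GW3965 livers and 6.61 and 6.73 in vehicle livers, a difference of 4.52 (SE 0.06, adjusted p = 8.7e-19). The arrays of the groups were far from overlapping for both genes, and the vehicle arrays of Isg15 differed most from each other.

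Mx2, a dynamin-like GTPase with antiviral action, had 10.08 and 10.27 in Dex+GW3965 livers, against 4.90 and 5.19 in vehicle livers. Vehicle livers were under the floor for Mx2, so the rise is given as at least 25.7-fold (adjusted p = 7.2e-17). A further probe set of Mx2 rose by 2.89 on the log2 scale, so the bound holds for the brightest. Mx1, its paralog, had 9.18 and 9.24 in Dex+GW3965 livers and 4.92 and 4.96 in vehicle livers, at least 13.1-fold higher (adjusted p = 1.2e-16). Paralogs of these families share sequence, and probes may pick up more than 1 member.

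Oas1a, an enzyme that makes the second messenger of RNase L on double-stranded RNA, had 10.37 and 10.43 in Dex+GW3965 livers and 5.99 and 5.85 in vehicle livers, a difference of 4.48 (SE 0.06, adjusted p = 8.7e-19). Ifit3, which belongs to a family that binds viral RNA, was at least 10.2-fold higher, and Herc6, a ligase related to the one that attaches ISG15 in human cells, was at least 10.9-fold higher. Ddx60, a helicase of the viral RNA sensing pathway, had 6.98 and 7.15 in Dex+GW3965 livers and 3.55 and 3.69 in vehicle livers, at least 2.97-fold higher. Among effectors above the floor in both groups, rises were also measured for Ifi44l (3.19), Oasl (2.78), Ifi44 (2.78) and Rsad2 (2.70), the last of which codes for the antiviral enzyme viperin.

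**Figure D2:**
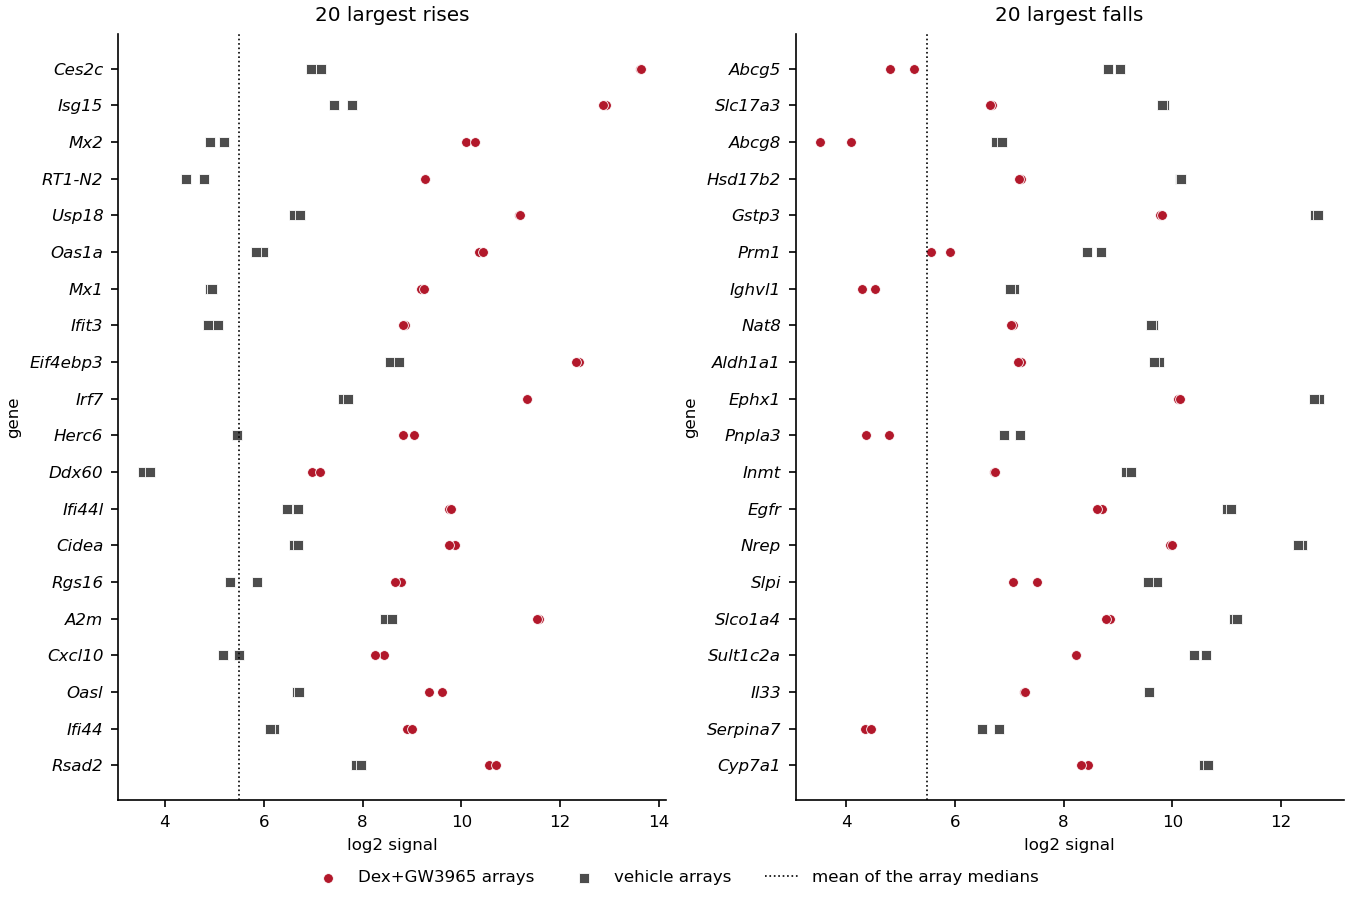
Log2 signals of the 20 largest rises (left) and the 20 largest falls (right) among named genes, with red circles for the 2 Dex+GW3965 arrays, grey squares for the 2 vehicle arrays and a dotted line at the mean of the array medians (5.49). Only genes whose Dex+GW3965 arrays do not overlap the vehicle arrays could enter, so the separation in the 40 rows follows from the choice.

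The regulators of the interferon response did not move together. Of 20 measured members 6 were higher, 6 lower and 8 not called, with a median change of -0.01. Irf7, the transcription factor that amplifies interferon production, had 11.32 and 11.33 in Dex+GW3965 livers and 7.61 and 7.70 in vehicle livers, a difference of 3.67 (SE 0.05, adjusted p = 8.7e-19). Irf9 (1.38) and Stat2 (0.63), subunits of the complex that binds the ISRE, were also higher. The kinase gene Jak1 (-0.60), and Irf8 (-0.95) and Irf1 (-0.33), transcription factors of the same family as Irf7, were lower. Irf8 is a marker of myeloid cells as well, and a number of cells and the RNA per cell cannot be told apart in whole tissue.

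Promoters were searched for the core of the ISRE, TTTCNNTTTC on either strand, in the window from 250 bases before to 50 bases after each RefSeq gene start (GRCr8). Overlapping matches were kept. Of 27457 such windows, 1034 (3.77%) hold the letters, and 253 of the 8235 with a measured gene (3.07%). They were found in 31 of 132 genes that were called at least 2-fold higher (23.5%) and in 4 of 135 called at least 2-fold lower (2.96%). Among interferon effectors 21 of 31 windows hold them (67.7%). Outside the interferon and MHC lists the share among genes at least 2-fold higher was 6 of 93 (6.45%). The 6 genes, named after their values were seen, were Apol9a, Faxdc2, Fbxo27, Ifgga2l1, Lgals9 and Ogfr. The lists need not hold every interferon-stimulated gene, and whether these 6 answer to interferon was not tested. The windows of Mx1, Herc6, Oasl and Ces2c do not hold these letters, while that of Ifitm2, which was not called, does.

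The stretches below show the match in 8 genes of the interferon and MHC class I response, Oas1b and Tap1 with smaller changes than the others, each of 40 bases upstream of the gene start, 5′ to 3′ on the strand of the gene, with the ISRE core in capitals. They come from RefSeq promoters on GRCr8.
Oas1a (chr12:41330410-41330449, plus strand): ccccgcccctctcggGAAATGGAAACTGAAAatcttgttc
Oas1b (chr12:41395887-41395926, minus strand): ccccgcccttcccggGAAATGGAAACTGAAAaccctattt
Ifit3 (chr1:241527267-241527306, plus strand): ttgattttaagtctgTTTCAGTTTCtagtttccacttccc
Irf7 (chr1:205800068-205800107, minus strand): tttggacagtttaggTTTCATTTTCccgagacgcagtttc
Ddx60 (chr16:33208888-33208927, minus strand): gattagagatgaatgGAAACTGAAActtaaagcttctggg
Ifi44 (chr2:243303842-243303881, minus strand): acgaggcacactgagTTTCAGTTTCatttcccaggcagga
Rsad2 (chr6:48788243-48788282, minus strand): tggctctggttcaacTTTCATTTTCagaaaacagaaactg
Tap1 (chr20:4668640-4668679, minus strand): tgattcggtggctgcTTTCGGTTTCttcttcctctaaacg
Oas1a and its paralog Oas1b carry the same overlapping pair of matches.

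Genes of antigen presentation on MHC class I moved in part with the effectors. Of 22 measured members 11 were higher, 5 lower and 6 not called, with a median of 0.11. RT1-N2, a class Ib heavy chain gene, had 9.27 and 9.27 in Dex+GW3965 livers, 8.60 and 8.55 in Dex livers, 8.38 and 8.37 in GW3965 livers, and 4.79 and 4.42 in vehicle livers. It was high in all 3 treated groups and under the floor in vehicle livers, so that Dex+GW3965 livers were at least 13.7-fold higher (adjusted p = 7.6e-17). Class I genes are nearly identical to each other and differ between rat strains, so these probe sets cannot be tied firmly to 1 gene. Tap1, a subunit of the peptide pump, had 9.03 and 8.80 in Dex+GW3965 livers and 7.26 and 7.75 in vehicle livers, a difference of 1.41 (SE 0.11, adjusted p = 1.1e-08). Psmb9, an immunoproteasome subunit, was higher by 0.83, whereas Psmb10, another such subunit, was lower by 0.30.

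Cxcl10, a chemokine that draws T cells, had 8.43 and 8.25 in Dex+GW3965 livers and 5.51 and 5.18 in vehicle livers, at least 7.18-fold higher (adjusted p = 5.1e-13). It belongs to a list of GTPases and CXCR3 ligands that answer to interferon gamma, of which 7 of 8 were higher and none lower. Cxcl9, another CXCR3 ligand, did not pass the test (-0.07, adjusted p = 0.52). Of 9 MHC class II genes 5 were lower and 2 higher, and 2 of the 5 are RT1-Ba and RT1-Bb, whose probe sets disagree. RT1-Da, a class II chain, had 8.56 and 8.39 in Dex+GW3965 livers and 10.07 and 10.14 in vehicle livers, and Cd74, the invariant chain, had 9.35 and 9.32 in Dex+GW3965 livers and 10.58 and 10.58 in vehicle livers. RT1-DMa, which helps to load peptides, was higher by 1.30. Further probe sets of RT1-Ba and RT1-Bb were called in the opposite direction to the brightest, so no direction is drawn for these genes, nor from the median of the list, which is the value of RT1-Ba (-0.63).

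The largest change of any named gene was that of Ces2c, a carboxylesterase, with 13.61 and 13.64 in Dex+GW3965 livers and 7.16 and 6.97 in vehicle livers. The difference was 6.56 (SE 0.05, adjusted p = 2.7e-22), or 94.6-fold. It was also at 13.75 and 13.75 in Dex livers but at 7.86 and 7.88 in GW3965 livers, and Dex+GW3965 did not pass the test against Dex (-0.12, adjusted p = 0.09). The carboxylesterases Ces1c (-0.65), Ces1d (-0.25) and Ces1e (-0.74) were lower.

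Other rises among the 20 largest were outside the interferon response. Eif4ebp3, a repressor of cap-dependent translation that acts when mTOR is inactive, had 12.38 and 12.32 in Dex+GW3965 livers and 8.56 and 8.74 in vehicle livers, a difference of 3.70 (SE 0.06, adjusted p = 6.6e-18). Its paralogs Eif4ebp1 (0.51) and Eif4ebp2 (0.48) rose far less. Cidea, a lipid droplet protein, was 8.83-fold higher, with 9.87 and 9.74 in Dex+GW3965 livers and 6.62 and 6.70 in vehicle livers. Rgs16, which shortens G protein signals, was higher by 3.13 and A2m, a broad protease inhibitor of rat plasma, by 3.03.

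Among falls, the largest was that of Abcg5, a subunit of the pump that exports sterols into bile. It had 5.24 and 4.81 in Dex+GW3965 livers and 8.81 and 9.04 in vehicle livers, and as the Dex+GW3965 mean lies under the floor the fall is given as at least 10.8-fold (adjusted p = 3.9e-11). Slc17a3, an organic anion transporter, had 6.69 and 6.65 in Dex+GW3965 livers and 9.85 and 9.80 in vehicle livers, a difference of -3.16 (SE 0.10). Hsd17b2, which inactivates estradiol and testosterone, had 7.22 and 7.18 in Dex+GW3965 livers and 10.14 and 10.16 in vehicle livers, a difference of -2.95 (SE 0.06, adjusted p = 1.1e-16). Gstp3, a glutathione S-transferase, fell by 2.86 and Aldh1a1, which makes retinoic acid, by 2.53.

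The next comparisons set Dex+GW3965 livers against livers given 1 compound, in the same fit. They share the Dex+GW3965 arrays with the comparison against vehicle and with each other, so their values stand side by side and their overlap is no result. Of the 9829 named genes, 14.2% were above and 10.4% below Dex livers, and 20.4% above and 18.7% below GW3965 livers. Against Dex livers, 13.4% of probe sets were called higher and 9.38% lower, and against GW3965 livers 19.0% were called higher and 16.8% lower. Of the 16253 probe sets, 538 (3.31%) stood above vehicle, Dex and GW3965 livers and 335 (2.06%) stood below all 3. The count below all 3 was 209 without Dex array a, 211 without Dex array b and 192 without Dex+GW3965 array b. The 3698 probe sets called against Dex were 2401 without Dex array b and 2376 without Dex+GW3965 array b.

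Of the 43 interferon effectors 35, Oas1b among them, stood above all 3 groups, against 334 of all 9829 named genes. Isg15 had 11.38 and 11.38 in Dex livers and 8.41 and 8.53 in GW3965 livers, and Dex+GW3965 livers lay above them by 1.51 (adjusted p = 1.4e-10) and 4.42 (adjusted p = 2.4e-17). Oas1b had 6.24 and 5.89 in Dex+GW3965 livers, 4.33 and 4.02 in Dex livers, 4.24 and 4.20 in GW3965 livers, and 4.20 and 4.02 in vehicle livers. Only the Dex+GW3965 arrays exceeded the floor for Oas1b, and it entered the fit through them alone, so its values are a description with no test. Oas1a, by contrast, had 9.88 and 9.94 in Dex livers and 7.93 and 7.94 in GW3965 livers, levels above that of vehicle in every array.

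Some genes outside the interferon list also stood above all 3 groups. Tspo, a cholesterol-binding protein of the outer mitochondrial membrane, had 9.73 and 9.61 in Dex+GW3965 livers, 8.13 and 7.99 in Dex livers, 7.88 and 7.79 in GW3965 livers, and 7.78 and 7.88 in vehicle livers. It was higher than vehicle by 1.84 (SE 0.07, adjusted p = 4.4e-13) and higher than Dex by 1.61 (adjusted p = 1.1e-11). Rnf213, a large ubiquitin ligase, averaged 10.45 in Dex+GW3965 livers, 9.03 in Dex livers, 7.99 in GW3965 livers and 8.37 in vehicle livers (2 arrays each). For Rnf213 the GW3965 arrays lay below those of vehicle, and the arrays with both compounds lay above all others. Gadl1, a decarboxylase of amino acids, exceeded the floor in Dex+GW3965 livers (6.22 and 6.14) and in no array of the other groups. It too entered the fit through these arrays alone and is given without a test.

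Among genes below all 3 groups, Tsku, which codes for the secreted protein tsukushi, had 7.57 and 7.55 in Dex+GW3965 livers, 9.53 and 9.55 in Dex livers, 8.75 and 8.71 in GW3965 livers, and 9.72 and 9.61 in vehicle livers. The difference was -2.10 against vehicle (SE 0.05, adjusted p = 3.1e-15), -1.97 against Dex (adjusted p = 3.4e-14) and -1.16 against GW3965 (adjusted p = 1.1e-11). Egfr, the receptor of epidermal growth factor, averaged 8.66 in Dex+GW3965 livers, 9.99 in Dex livers, 10.63 in GW3965 livers and 11.04 in vehicle livers (2 arrays each). Its 3 probe sets ranged from -2.39 to 0.15 in change against vehicle, so the value holds for the brightest. Slco1a4, an uptake carrier of organic anions and bile acids, had 8.85 and 8.79 in Dex+GW3965 livers, 10.05 and 9.99 in Dex livers, 11.67 and 11.70 in GW3965 livers, and 11.13 and 11.19 in vehicle livers.

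Alas1, which sets the rate of heme synthesis, was lower than in vehicle livers (-1.06), and lower than in Dex and GW3965 livers as well. Cry1, a repressor of the circadian clock (-0.96), Hsph1, a heat shock protein (-0.90), and Egr1, an immediate early transcription factor (-0.72), also stood below all 3 groups, although the order of the other groups differed among them. Fam111a was at 10.01 and 10.18 in Dex livers and under the floor in all arrays of the other groups, including those of Dex+GW3965 (3.54 and 3.54), so no fold against vehicle is given.

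**Figure D3:**
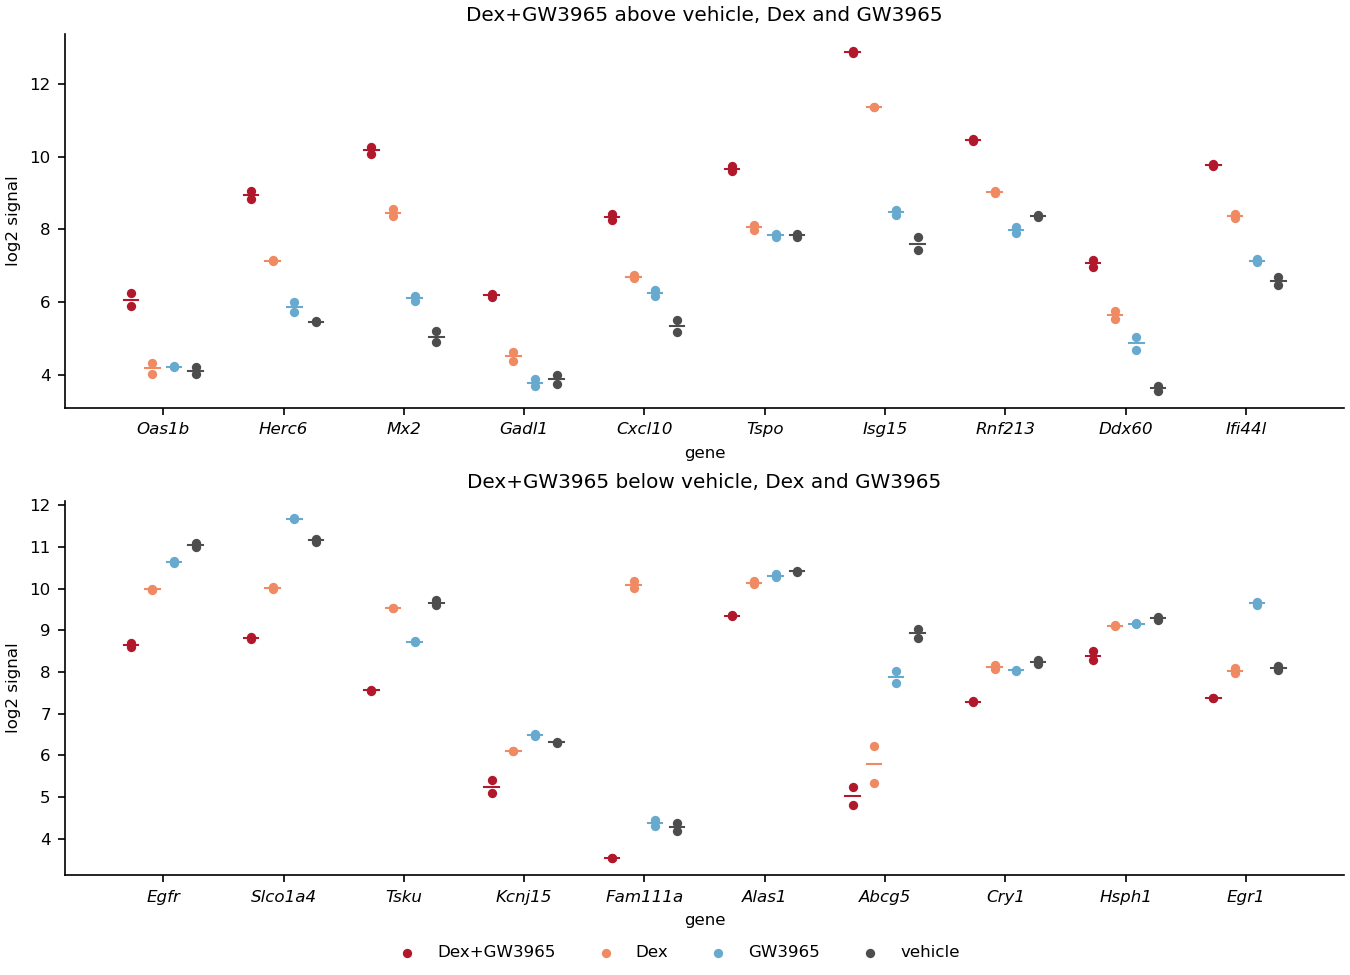
Log2 signals of each array for the 10 genes standing furthest above (top) and the 10 standing furthest below (bottom) vehicle, Dex and GW3965 livers, in the order Dex+GW3965, Dex, GW3965, vehicle within a gene; dashes are means of 2 arrays. The genes were chosen for lying beyond the other groups, so the separation of the Dex+GW3965 points follows from the choice. Oas1b and Gadl1 entered the fit through the Dex+GW3965 arrays alone, and Fam111a is high in Dex livers only.

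Genes of glucose output were mostly higher in Dex+GW3965 livers than in vehicle livers, by small amounts. Of 26 measured members of gluconeogenesis 16 were higher, 3 lower and 7 not called, with a median of 0.19. G6pc, the gene of glucose-6-phosphatase, had no kept probe set with a single symbol and is not among them. Slc37a4, which carries glucose 6-phosphate into the endoplasmic reticulum, had 12.11 and 12.11 in Dex+GW3965 livers and 10.98 and 11.09 in vehicle livers, a difference of 1.08 (SE 0.04, adjusted p = 7.1e-13). Pck1, the enzyme that makes phosphoenolpyruvate, had 13.32 and 13.23 in Dex+GW3965 livers, 13.33 and 13.25 in Dex livers, 12.89 and 12.92 in GW3965 livers, and 12.67 and 12.61 in vehicle livers. The differences of 0.63 against vehicle and 0.37 against GW3965 passed the test, and the difference of -0.02 against Dex did not (adjusted p = 0.77). Aqp9, the glycerol channel (-0.51), and Pdk4, a kinase that shuts pyruvate dehydrogenase (-0.52), were lower.

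In hexose use, Pfkfb1, which sets the level of fructose 2,6-bisphosphate, had 11.78 and 11.75 in Dex+GW3965 livers and 9.96 and 10.09 in vehicle livers, and Dex livers stood higher still at 12.26 and 12.29. The rise against vehicle was 1.73 (SE 0.04, adjusted p = 3.0e-15). Slc2a5, the fructose carrier, was higher by 1.34, and H6pd, which makes NADPH in the endoplasmic reticulum, by 0.61. Of 16 glycogen genes 3 were higher and 4 lower, shares near those of all named genes (16.2% and 23.7%). One of the 4 was Stbd1, which tethers glycogen to membranes and fell by 1.18.

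Enzymes of amino acid breakdown were higher in 31 of 51 members and lower in 9, with a median of 0.22, and those of transamination and nitrogen disposal were higher in 12 of 24 and lower in 7. Gpt, the cytosolic alanine transaminase, had 12.52 and 12.48 in Dex+GW3965 livers and 10.27 and 10.30 in vehicle livers, a difference of 2.22 (SE 0.04, adjusted p = 1.1e-17). Sds, which turns serine into pyruvate, had 9.54 and 9.55 in Dex+GW3965 livers, 11.19 and 11.39 in Dex livers, 7.54 and 7.42 in GW3965 livers, and 7.84 and 7.69 in vehicle livers. It was higher than vehicle by 1.78 (adjusted p = 5.7e-13) and differed from Dex by -1.74 (adjusted p = 3.0e-12).

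Tat, the tyrosine transaminase, is a classic target of the GR and was lower in Dex+GW3965 livers (10.18 and 10.12) than in vehicle livers (11.02 and 11.03), while Dex livers had 12.06 and 12.08. The difference from vehicle was -0.88 (SE 0.04, adjusted p = 5.0e-12). Acmsd, which draws tryptophan products away from NAD synthesis, rose by 1.69 (adjusted p = 6.2e-12), and Kmo, an earlier enzyme of the same route, fell by 1.31 (adjusted p = 8.2e-13). Ornithine transaminase (Oat) fell by 0.92.

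Of 24 genes of the GR and its targets, 13 were higher than in vehicle livers (all named genes 16.2%) and 6 lower (23.7%, about the same share), and 14 were lower than in Dex livers (10.4%). Fkbp5, a cochaperone that dampens the GR, had 8.38 and 8.36 in Dex+GW3965 livers, 9.84 and 9.71 in Dex livers, 6.27 and 6.25 in GW3965 livers, and 6.56 and 6.62 in vehicle livers. Zfp354a, a zinc finger gene, had 8.65 and 8.55 in Dex+GW3965 livers, 11.28 and 11.30 in Dex livers, 6.52 and 6.40 in GW3965 livers, and 6.69 and 6.87 in vehicle livers. Igfbp1, a binding protein of insulin-like growth factors, and Lpin1, a phosphatidate phosphatase, also lay between Dex and vehicle livers, 1.68 and 1.50 above vehicle. Serpina6, the plasma carrier of corticosteroids, fell by 1.77 (adjusted p = 1.2e-16). The receptor itself, Nr3c1, was at 8.78 and 8.87 in Dex+GW3965 livers and 9.04 and 8.90 in vehicle livers and did not pass the test (-0.15, adjusted p = 0.077).

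Cyp1a1, the oxidase at the head of the aryl hydrocarbon receptor battery, had 7.81 and 7.85 in Dex+GW3965 livers, 11.40 and 11.45 in Dex livers, 5.38 and 5.51 in GW3965 livers, and 7.36 and 7.48 in vehicle livers. The arrays with both compounds lay near vehicle, 0.41 above it (adjusted p = 0.00011), and differed from Dex by -3.59 (adjusted p = 3.1e-16).

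LXR receptors and targets did not move one way. Of 33 measured members 7 were higher, 13 lower and 13 not called, with a median of -0.06. The receptor genes Nr1h3 (-0.09, adjusted p = 0.17) and Nr1h2 (0.09, adjusted p = 0.40) did not pass the test. Abcg8, the partner of Abcg5, had 3.53 and 4.09 in Dex+GW3965 livers and 6.77 and 6.87 in vehicle livers, at least 2.51-fold lower (adjusted p = 8.7e-11). Abcg8 averaged 4.07 in Dex livers, also under the floor, and 5.50 in GW3965 livers (2 arrays each). Abcg5 averaged 5.79 in Dex livers and 7.88 in GW3965 livers, so both genes were low in Dex livers too. Abca1, which loads cholesterol on HDL, had 9.18 and 9.18 in Dex+GW3965 livers and 7.57 and 7.87 in vehicle livers on its brightest probe set (1.46). Its 4 probe sets disagree, with 2 called higher (1.46 and 1.05) and 2 lower (-0.44 and -0.31), so no direction is drawn for Abca1. Pnpla3, a lipase of lipid droplets, was at least 2.95-fold lower.

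Cyp7a1, whose enzyme sets the pace at which cholesterol is turned into bile acids, had 8.44 and 8.32 in Dex+GW3965 livers, 10.08 and 10.08 in Dex livers, 6.99 and 7.00 in GW3965 livers, and 10.58 and 10.65 in vehicle livers. The difference was -2.24 against vehicle (SE 0.05, adjusted p = 1.3e-15), -1.70 against Dex (adjusted p = 2.7e-13) and 1.38 against GW3965 (adjusted p = 9.8e-13). Other enzymes of the route split, with Cyp27a1 (0.63) and Cyp8b1 (0.49) higher and Akr1d1 (-1.27) and Acox2 (-1.10) lower. Of 17 transporters of bile acids and anions 10 were lower and 3 higher, among them Abcg2 (-1.29) and Abcc2 (-1.01), both export pumps of the canalicular membrane.

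Fatty acid synthesis genes were split as well, with 13 of 31 higher and 9 lower. Fasn, the fatty acid synthase, had 12.33 and 12.29 in Dex+GW3965 livers, 12.33 and 12.31 in Dex livers, 10.75 and 10.68 in GW3965 livers, and 11.13 and 11.06 in vehicle livers, 1.21 above vehicle (adjusted p = 5.1e-14). Acaca, which makes malonyl-CoA, was 1.32 above vehicle. Srebf1, the transcription factor that drives these genes, was lower (-0.42, adjusted p = 3.9e-07), as was Scd, the stearoyl-CoA desaturase (-0.47). The desaturases of polyunsaturated fatty acids fell too, Fads1 by 0.88 and Fads2 by 2.09 (8.55 and 8.46 in Dex+GW3965 livers, 10.58 and 10.61 in vehicle livers).

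Cholesterol synthesis genes were mostly lower than in vehicle livers. Of 22 measured members 15 were lower than vehicle and 4 higher, with a median of -0.22, while 12 were above Dex (all named genes 14.2%) and 2 below it (10.4%). The 4 higher and the 2 below Dex are near the shares of all named genes. Dhcr7, the last enzyme of the route, had 10.39 and 10.44 in Dex+GW3965 livers, 9.99 and 9.88 in Dex livers, 10.78 and 10.82 in GW3965 livers, and 11.11 and 11.07 in vehicle livers. Lss, the lanosterol synthase, went against the list with a rise of 0.96 (adjusted p = 1.1e-09).

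Respiratory chain subunits rose together by small steps. Of 42 measured members 37 were higher than in vehicle livers, 1 was lower and 4 were not called, with a median of 0.32 and no rise above 0.63. Against GW3965 livers 39 were higher (all named genes 20.4%), and against Dex livers 2 were higher (14.2%) and 9 lower (10.4%). Ndufv2, a subunit of complex I, had the largest rise, with 11.58 and 11.60 in Dex+GW3965 livers and 10.98 and 10.96 in vehicle livers. Tfam, which maintains mitochondrial DNA and is no subunit, was the member that fell (-0.17, adjusted p = 0.032). Ppargc1a (0.14, adjusted p = 0.44) is in the list and is no subunit either. No member was called lower without Dex+GW3965 array a, without Dex+GW3965 array b or without vehicle array b. The same held under quantile normalization, with no filter, with no intensity trend and with the 4 arrays of the comparison alone.

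Fatty acid oxidation showed no such common direction, with 14 of 33 higher and 12 lower. Cpt1a, which admits long-chain fatty acids to mitochondria, had 10.96 and 10.96 in Dex+GW3965 livers and 9.29 and 9.39 in vehicle livers (1.62, adjusted p = 1.0e-14). Cyp4a8 rose by 1.91 while its relative Cyp4a3 fell by 0.94, and Ehhadh, a peroxisomal enzyme, fell by 1.13. Fgf21, a hormone of the fasted liver, rose by 1.15.

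Glutathione S-transferases and glutathione enzymes were lower in 21 of 28 members and higher in 3, with a median of -0.39. Gclc, which limits glutathione synthesis, had 8.43 and 8.39 in Dex+GW3965 livers and 9.96 and 9.98 in vehicle livers, a difference of -1.55 (SE 0.05, adjusted p = 4.3e-14), and Gsta3, a transferase, fell by 2.03. Ephx1, the microsomal epoxide hydrolase, had 10.11 and 10.14 in Dex+GW3965 livers and 12.69 and 12.61 in vehicle livers, a difference of -2.53 (SE 0.04, adjusted p = 6.1e-18), and its level in Dex livers was 10.07 and 10.15.

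Of 33 genes of the xenobiotic receptors PXR and CAR and their targets, 15 were higher and 17 lower. The receptor genes Nr1i2 (0.95) and Nr1i3 (0.73) were higher, as were the oxidases Cyp3a9 (1.74) and Cyp3a23-3a1 (0.92). Beside Ephx1 the falls of at least 2-fold included sulfotransferases and members of the Cyp2 family, among them Sult1c2 (-1.48), Cyp2c22 (-1.26) and Cyp2c23 (-1.19). Cyp and Gst genes lie in families of close relatives, so the values belong to the probe sets more firmly than to the single genes.

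**Figure D4:**
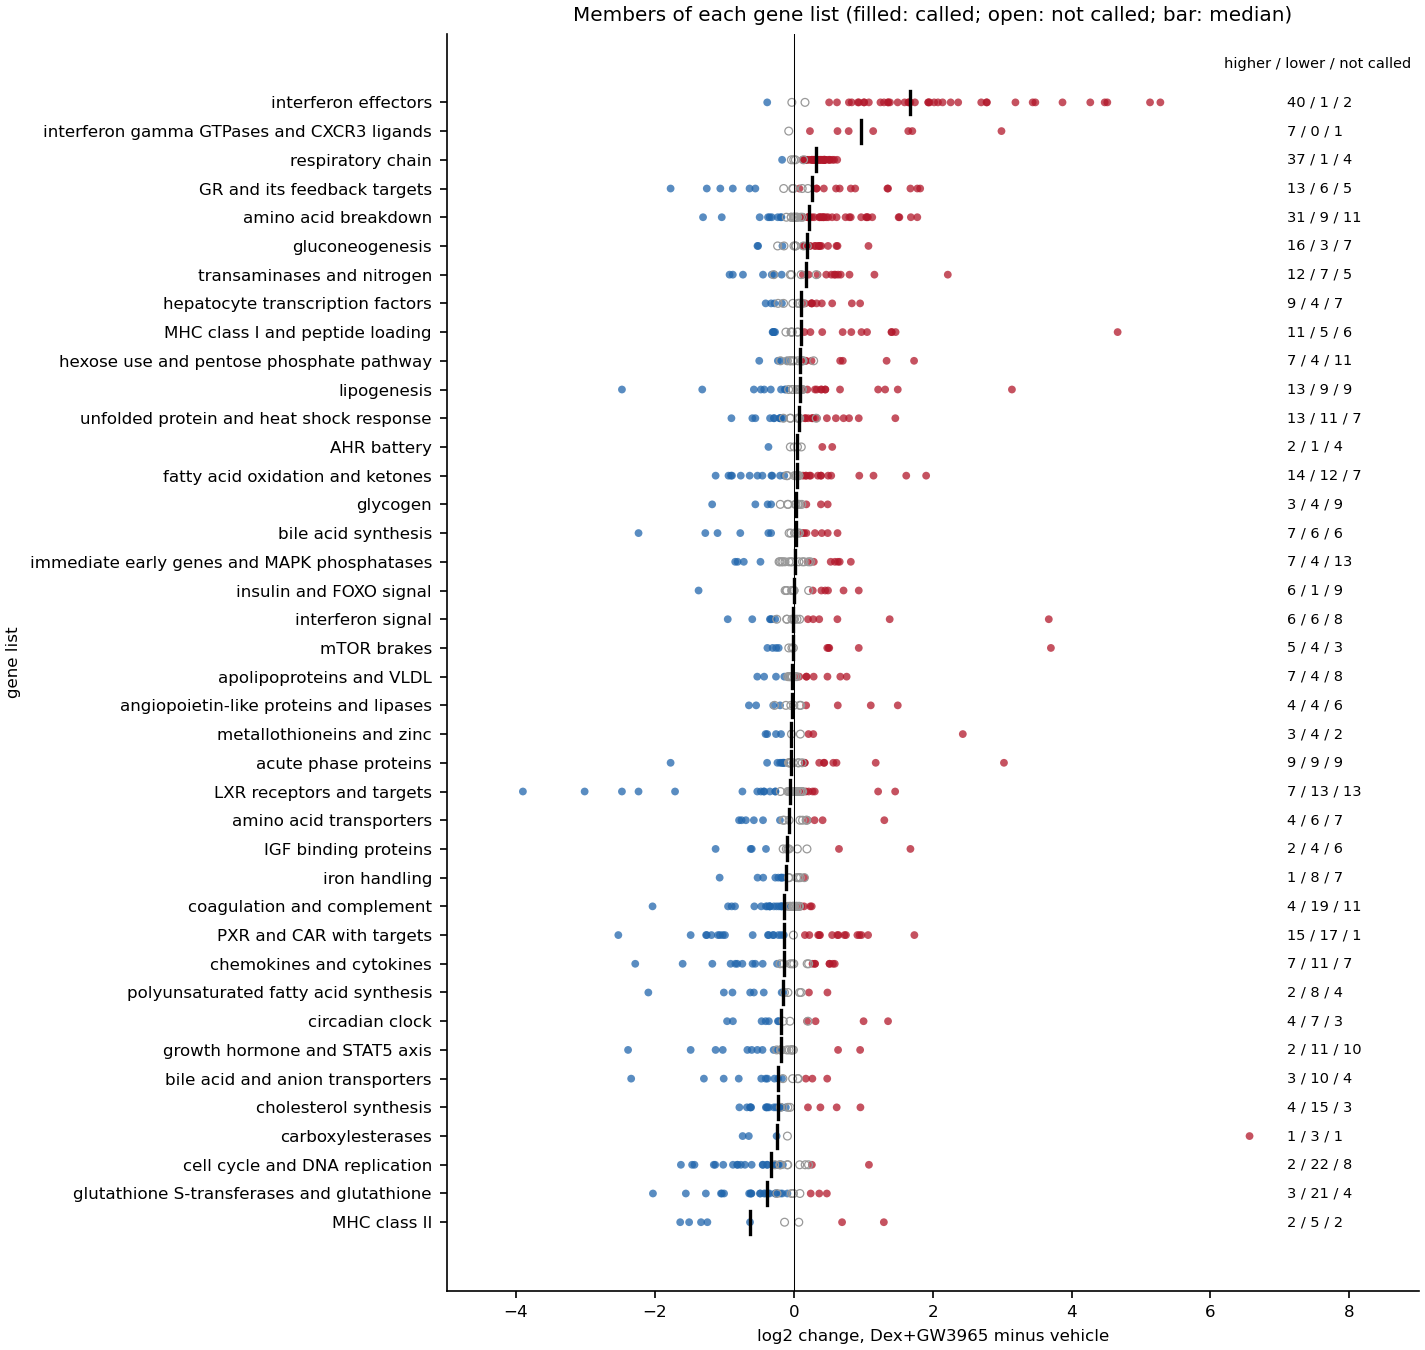
Log2 change, Dex+GW3965 minus vehicle, of each measured member of 40 gene lists, ordered by list median (black bar); filled points were called (red higher, blue lower) and open points were not, and the counts stand at the right. Interferon effectors stand furthest right with a median of 1.68 and MHC class II furthest left with a median of -0.63, which is the value of RT1-Ba, a gene whose probe sets disagree, while the medians of most lists lie near 0.

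Genes of the growth hormone and STAT5 axis were lower in 11 of 23 members and higher in 2. Igfals, which holds IGF-1 in the circulation, fell by 1.13, the growth hormone receptor Ghr by 0.67 and Igf1 by 0.61. Cish, a feedback inhibitor induced by STAT5, rose, with 8.64 and 8.67 in Dex+GW3965 livers, 6.03 and 5.98 in Dex livers, 8.42 and 8.50 in GW3965 livers, and 8.01 and 8.02 in vehicle livers. Socs2, another such inhibitor, had 7.33 and 7.35 in Dex+GW3965 livers, 6.14 and 5.84 in Dex livers, 8.62 and 8.44 in GW3965 livers, and 7.49 and 7.54 in vehicle livers, and did not pass against vehicle (adjusted p = 0.17). For both genes Dex arrays were the lowest. Onecut1, a hepatocyte transcription factor that growth hormone induces, was higher than vehicle by 0.96 and higher than Dex by 1.92.

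Cell cycle and replication genes were lower in 22 of 32 members and higher in 2, with a median of -0.33 (-0.26 with dim members at their bounds). For 9 of them a group mean lay under the floor, such as Cdk1, the mitotic kinase, which was at least 1.38-fold lower. Without dim probe sets 14 members were lower. Among brighter members, Ccnd1, the cyclin that starts the cycle, had 7.78 and 7.90 in Dex+GW3965 livers, 6.66 and 6.40 in Dex livers, 8.51 and 8.54 in GW3965 livers, and 8.99 and 8.94 in vehicle livers. Cdkn1a, the inhibitor p21, rose by 1.08. Markers of blood cells moved as well, with values given at the end.

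Plasma proteins of the coagulation and complement systems were lower in 19 of 34 members (all named genes 23.7%) and higher in 4 (16.2%), with a median of -0.14. Klkb1, plasma prekallikrein, had 9.59 and 9.57 in Dex+GW3965 livers and 11.62 and 11.60 in vehicle livers, a difference of -2.03 (SE 0.04, adjusted p = 6.8e-17). C9, a subunit of the membrane attack complex, fell by 0.89 and antithrombin (Serpinc1) by 0.47. Acute phase proteins split evenly, with 9 of 27 higher and 9 lower, and after A2m the largest rise was that of Orm1 (1.18). Hamp, the iron hormone hepcidin, fell by 1.07, and Mt2A, a metallothionein, rose by 2.43.

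Chemokines and cytokines were lower in 11 of 25 members and higher in 7. Il33, an alarmin of the interleukin-1 family, had 7.27 and 7.29 in Dex+GW3965 livers and 9.56 and 9.56 in vehicle livers, a difference of -2.28 (SE 0.07, adjusted p = 4.2e-14). Cxcl12, which retains leukocytes and stem cells, had 10.08 and 10.01 in Dex+GW3965 livers, 9.27 and 9.30 in Dex livers, 11.92 and 11.91 in GW3965 livers, and 11.60 and 11.69 in vehicle livers. Ccl9 fell by 0.84 and Ccl5 by 1.17, whereas Ccl4 (0.59) and Ccl3 (0.51) rose.

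The unfolded protein and heat shock list was split, with 13 of 31 higher and 11 lower. Edem1, which sends misfolded glycoproteins to degradation, rose by 1.46 and Herpud1, of the same pathway, by 0.80, while the chaperone genes Hsp90ab1 (-0.55) and Hspa5 (-0.20) fell. Clock genes were lower in 7 of 14 members and higher in 4, with Nr1d2 (1.01) and Usp2 (1.36) on one side and Cry1 (-0.96) and Cry2 (-0.88) on the other. A further probe set of Cry2 was not called (-0.09), so the fall holds for the brightest. Of the immediate early genes and MAPK phosphatases, Dusp1 (0.66) and Errfi1 (0.82) rose and Dusp6 (-0.84) and Myc (-0.81) fell.

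Markers of cells other than hepatocytes moved in these arrays as well, downward in most lists, while that of cholangiocytes was split. Kupffer cell markers were lower in 7 of 11 members, and the mean level of the list was 8.61 and 8.58 in Dex+GW3965 livers, against 8.85 and 8.86 in vehicle livers. Clec4f, a lectin of Kupffer cells, rose by 0.26. Stellate cell markers were lower in 10 of 15 members and higher in 2. Their mean level was 7.52 and 7.54 in Dex+GW3965 livers and 7.99 and 7.99 in vehicle livers. The 2 were Timp1 (0.32) and Rgs5, at least 1.44-fold higher, with vehicle livers under the floor. Sinusoidal endothelial markers were lower in 5 of 10 members and higher in 1, Tek (0.34). Their mean level was 8.47 and 8.43 in Dex+GW3965 livers and 8.74 and 8.76 in vehicle livers. All 4 measured erythrocyte markers, of 10 listed, were lower (8.01 and 8.05 in Dex+GW3965 livers, 9.12 and 9.22 in vehicle livers). Both measured neutrophil markers, of 10 listed, were lower too (5.25 and 5.20 in Dex+GW3965 livers, 6.55 and 6.57 in vehicle livers). Of 11 listed cholangiocyte markers 6 were measured, with 3 higher (Epcam 0.70, Spp1 0.37 and Anxa4 0.31) and 1 lower. The lower one was Krt19, at least 1.30-fold, with Dex+GW3965 livers under the floor. The mean level of the list was 7.03 and 7.00 in Dex+GW3965 livers and 6.95 and 6.92 in vehicle livers. Of 20 listed T and NK cell markers 7 were measured, 3 lower and 1 higher (5.60 and 5.65 in Dex+GW3965 livers, 5.90 and 5.90 in vehicle livers). Of 11 listed B cell and plasma cell markers 3 were measured, 2 lower (6.45 and 6.40 in Dex+GW3965 livers, 7.06 and 7.12 in vehicle livers). S100a8 of the neutrophil list and Krt19 of the cholangiocyte list passed the filter only through vehicle arrays, and Gzmb of the T and NK list only through Dex+GW3965 arrays. This makes the changes of S100a8, Krt19 and Gzmb a matter of selection. Hepatocyte markers were split, with 3 of 11 members higher and 5 lower, and changes from -0.33 to 0.64. Their mean level was 13.29 and 13.29 in Dex+GW3965 livers and 13.27 and 13.23 in vehicle livers. The part of these cell types in the falls of MHC class II, chemokine and cell cycle genes was not tested.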

How the data were processed

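The authors deposited log2 signals, 1 value per probe set on each of 8 Affymetrix rat genome arrays hybridized with labelled RNA made from 5 µg of total RNA. Per the methods, the authors re-mapped probes to UniGene, subtracted the MAS background and used only the perfect-match probes. MAS5 is named in the submitters' notes. Its version, the base of the logarithm and any scaling between arrays are not given in the sources used here. Base 2 was inferred from values between 2.50 and 14.95, and the array medians, within 0.04 of each other, were left as deposited. With 2 arrays per group the number of arrays limits the precision.

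From 31099 probe sets, 57 Affymetrix controls were removed. Of the 31042 left, the platform annotation names 1 gene for 20826, several for 436 and none for 9780, and 20758 symbols were updated by gene identifier and 2 by accession. Kitlg and G6pc had no kept probe set with a single symbol. Each group had its own mean in a linear model over the 8 arrays (limma 3.58.1, R 4.3.3, eBayes with an intensity trend, 4 residual degrees of freedom, a prior of 12.7), with Benjamini-Hochberg adjustment over 16253 probe sets. A check of the code used simulated arrays with independent noise and few changed probe sets. It does not bear on the calls made here. A change from or to a group mean under the floor of 5.49 is given as a lower bound against that floor. Gene lists were described by counts and medians without a test of the list.

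The comparison, the lists and the rules were chosen with earlier results of these data known. Named genes are the 20 largest rises and falls whose arrays do not overlap, up to 5 called members of each list, the 10 genes furthest above or below all other groups, and genes of the study's text. Some others (receptor genes, members against their list, markers) were chosen after their values were seen. Same-lettered arrays did not deviate together across groups (correlations of -0.23 to 0.08), so letters were not used as pairs. Alternatives were quantile normalization, other filters, the 4 arrays alone, a replicate block, no trend, the methods' t-test, leaving out each array and averaging the probe sets of a gene.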

Additional observations from a re-analysis of the deposited data

How the results depend on the processing

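Under quantile normalization, no filter, a filter on the mean signal, the 4 arrays alone and no intensity trend, the counts of called probe sets against vehicle stayed within 1.5 times, between 5369 and 6086. With a replicate block by array letter 5800 were called, and with the letters of the vehicle arrays exchanged, an alternative chosen after seeing the data, 6129. Without 1 array the count lay between 4799 and 5889, with 2113 to 2482 higher, 2679 to 3407 lower, 270 to 283 at least 2-fold higher and 224 to 242 at least 2-fold lower. Probe sets called against Dex numbered 2376 to 4020 and against GW3965 4262 to 6085 without 1 array, and those above all 3 groups 362 to 582 and below them 192 to 358. Without the intensity trend 223 lay below all 3 groups. By the methods' t-test over same-lettered log ratios, 2333 probe sets passed at an unadjusted p of 0.05 (1098 higher and 1235 lower), and after Benjamini-Hochberg adjustment 2 (0 higher and 2 lower, 0 of them at least 2-fold higher and 1 at least 2-fold lower). That test uses only the 2 ratios of a probe set. With limma 7148 probe sets had an unadjusted p under 0.05. Of 4000 values of 251 named genes, 3737 kept their direction and call and 262 lost the call, 250 of these under the methods' t-test after adjustment. Slc11a2, an iron carrier (-0.22), had 0.0017 as the mean over its probe sets. The calls of Cyp1b1, Mtf1, Spp1 and Slc11a2 were lost without 1 or another of the Dex+GW3965 and vehicle arrays, and that of Mtf1 also without the trend. The median change of all probe sets was -0.0032 after quantile normalization. Without detection calls or probe-level data, changes of dim genes have only a bound.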
